A study of Mus musculus with 3 samples.

Results

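The H3K27ac peaks of 10 mouse genes whose human orthologs name type 2 diabetes risk loci were examined in MIN6 cells, an insulin-secreting line grown from a mouse insulinoma. The genes were C2cd4a, C2cd4b, Vps13c, Camk1d, Tcf7l2, Cdkal1, Igf2bp2, Jazf1, Thada and Kcnq1. A peak belonged to a gene when it touched the gene, or lay within 50 kb of it with no other protein-coding gene nearer, on mm10. Peaks from any of the 3 lists that shared or adjoined bases were joined into regions, and 85 of the 52938 regions of the series were assigned to the 10 genes by this rule, which used no measured height or change. C2cd4a, C2cd4b and Vps13c are neighbours on chromosome 9 and were also counted as 1 locus, which gave 8 loci. Regions were numbered along the chromosome within each locus.

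The series compared a homozygous Arid1a knockout clone, a heterozygous Arid1a knockout clone and a wild-type clone of MIN6. Arid1a encodes a DNA-binding subunit of SWI/SNF, a complex that moves nucleosomes. Per the labels, cells infected with a Cas9 lentivirus and selected in blasticidin received a lentiviral guide RNA against Arid1a and puromycin, single clones were picked, and PCR genotyping with Western blotting for ARID1A sorted them into the 3 genotypes. The protocol text is the same for all 3 samples, but the peak names of the wild-type list carry the tag GAL4, which the labels do not explain. Whether the wild-type clone received the Arid1a guide or a control construct is therefore not known, and a difference in construct cannot be told apart from genotype in comparisons with wild type. Each genotype is 1 clone with 1 library, so the values below compare single clones, with no test. The guide is shown because its cut defines the knockouts, with the PAM in capitals.
Arid1a guide, chromosome 4: gctgctgctgatacgaaggtTGG

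H3K27ac is the acetylation of lysine 27 of histone H3, which marks active promoters and enhancers. Most human variants tied to type 2 diabetes lie outside coding sequence, many of them in enhancers active in islets, and the gene through which a variant acts is often not settled. The mouse genes are orthologs of genes at those loci, and the data hold no risk allele. Several of the genes have known roles in beta cells. CDKAL1 modifies a transfer RNA used in proinsulin synthesis, and TCF7L2 is the transcription factor through which Wnt signals reach their target genes.

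The peak lists held 34298 homozygous, 31365 heterozygous and 41490 wild-type peaks, of which 42, 37 and 71 belonged to the 10 genes. The labels state no read totals. The authors' fold enrichment and −log10 p of a peak were solved for its summit pile-up and its local background, both in reads. The lowest such background, taken as a measure of relative depth, was 1.73 reads in the homozygous, 1.73 in the heterozygous and 2.17 in the wild-type list. The higher wild-type value stands beside every count of regions not called in a knockout, and its part in those counts was not tested. Of 12 beta cell markers, 11 in the homozygous, 10 in the heterozygous and 11 in the wild-type library had a peak within 1 kb of a listed start. Slc2a2, which encodes the rodent beta cell glucose transporter, had none in any library, and Pdx1 had none in the heterozygous library alone. Of 4 alpha cell markers 2 (Gcg and Irx2), 1 (Irx2) and 2 (Irx1 and Irx2) had such a peak. Of 4 acinar markers 0, 1 and 0 had one, the gene being Cela1, a pancreatic elastase. No marker of delta, PP or epsilon cells, duct, endothelium, immune cells or fibroblasts had one in any library. In a bulk library, fewer cells carrying a mark and less of the mark per cell cannot be told apart.

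Start sites set the first contrast among the genes. RefSeq promoter sequences (GRCm38.p6, the assembly of mm10) were at hand for 8 of the 10 genes, not for Vps13c and Kcnq1. Of the 6 windows below, each 250 bases before to 50 after the start, the first 4 lie at a peak, or within 603 bp of one, in all 3 libraries and the last 2 have no peak near them in any. Capitals mark matches, on either strand, to the letters searched, which were TGACGTCA (CRE), TGACG (CRE core), TGANTCA (AP-1), TGTTTAC (FOX), CTTTGA (TCF/LEF), CAGATG (a NEUROD E-box), GGGCGG (GC box) and CCAAT. A full CRE holds 2 overlapping cores, 1 on each strand.
C2cd4a promoter, chr9:67832281-67832580, minus strand: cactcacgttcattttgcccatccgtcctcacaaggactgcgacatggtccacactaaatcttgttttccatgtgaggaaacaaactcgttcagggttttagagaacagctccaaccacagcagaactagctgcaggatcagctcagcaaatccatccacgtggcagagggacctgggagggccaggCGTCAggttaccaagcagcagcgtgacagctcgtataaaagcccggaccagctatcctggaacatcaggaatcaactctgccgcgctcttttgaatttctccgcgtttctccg
C2cd4b promoter, chr9:67759187-67759486, plus strand: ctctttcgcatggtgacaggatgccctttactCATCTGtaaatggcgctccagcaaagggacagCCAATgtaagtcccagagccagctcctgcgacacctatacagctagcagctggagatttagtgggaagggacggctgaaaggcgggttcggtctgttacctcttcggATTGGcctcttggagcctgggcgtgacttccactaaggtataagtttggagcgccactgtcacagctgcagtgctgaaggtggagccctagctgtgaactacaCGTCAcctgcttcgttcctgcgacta
Cdkal1 promoter, chr13:29855624-29855923, minus strand: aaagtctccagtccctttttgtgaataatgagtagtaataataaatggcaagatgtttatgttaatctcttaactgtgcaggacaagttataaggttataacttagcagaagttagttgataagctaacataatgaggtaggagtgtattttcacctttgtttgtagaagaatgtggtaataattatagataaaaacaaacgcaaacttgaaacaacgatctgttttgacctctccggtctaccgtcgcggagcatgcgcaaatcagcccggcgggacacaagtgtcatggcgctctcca
Thada promoter, chr17:84466159-84466458, minus strand: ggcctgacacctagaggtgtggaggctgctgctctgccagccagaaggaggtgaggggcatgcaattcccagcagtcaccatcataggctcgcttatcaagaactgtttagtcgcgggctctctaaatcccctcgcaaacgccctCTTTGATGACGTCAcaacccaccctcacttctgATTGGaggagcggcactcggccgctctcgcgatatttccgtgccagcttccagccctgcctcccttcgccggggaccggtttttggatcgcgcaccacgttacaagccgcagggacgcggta
Tcf7l2 promoter, chr19:55741560-55741859, plus strand: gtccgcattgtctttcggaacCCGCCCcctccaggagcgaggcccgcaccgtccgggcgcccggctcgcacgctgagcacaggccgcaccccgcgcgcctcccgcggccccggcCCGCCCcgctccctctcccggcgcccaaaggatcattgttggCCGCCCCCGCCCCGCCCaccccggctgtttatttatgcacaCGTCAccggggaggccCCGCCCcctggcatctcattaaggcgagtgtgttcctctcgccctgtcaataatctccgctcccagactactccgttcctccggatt
Igf2bp2 promoter, chr16:22163250-22163549, minus strand: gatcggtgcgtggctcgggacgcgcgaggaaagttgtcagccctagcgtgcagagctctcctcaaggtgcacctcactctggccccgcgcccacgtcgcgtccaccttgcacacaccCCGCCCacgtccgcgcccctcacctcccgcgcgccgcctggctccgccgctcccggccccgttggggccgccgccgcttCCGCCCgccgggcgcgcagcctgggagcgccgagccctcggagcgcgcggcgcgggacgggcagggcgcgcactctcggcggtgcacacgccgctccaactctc

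Thada, Jazf1, Cdkal1 and C2cd4b had a peak inside this window in all 3 libraries. At Jazf1, which encodes a zinc finger protein that acts as a nuclear receptor cofactor, peaks covered all 300 bases in every library. At Thada, named after a gene disrupted in human thyroid adenomas, they covered 171 bases in the homozygous, 221 in the heterozygous and 183 in the wild-type library. At Cdkal1 they covered 75, 20 and 112 bases, and at C2cd4b 21, 1 and 6. The C2cd4a window was not covered, and the nearest peaks lay 58 bp away in the homozygous, 603 bp in the heterozygous and 23 bp in the wild-type library. C2cd4a and C2cd4b encode related proteins with a C2 domain, found in beta cells and other cells.

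Tcf7l2 and Igf2bp2 had no peak at a start in any of the 3 clones, although their first promoters are rich in CpG. The Tcf7l2 window had 34 CpG and a GC content of 70.0%, and the Igf2bp2 window, before a gene for an RNA-binding protein, 47 CpG and 76.7%. Over 32851 promoter windows the medians were 7 CpG and 52.7%. The peaks nearest to the Tcf7l2 window were 424822 bp away in the homozygous, 424966 bp in the heterozygous and 51154 bp in the wild-type library. For Igf2bp2 these distances were 77892, 86726 and 78012 bp. The Cdkal1 window, which held a peak in every library, had a GC content of 39.0% and 10 CpG.

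The Thada window was the one of these with a full CRE, the letters bound by CREB family factors in cAMP-responsive promoters, and 1.79% of all windows hold one. Letters of a TCF/LEF match run straight into it, and 16.0% of all windows hold such a match. C2cd4a, C2cd4b and Tcf7l2 each had 1 CRE core, present in 20.8% of windows, and C2cd4b also 1 E-box match, present in 17.2%, and 2 CCAAT matches, present in 37.4%. Tcf7l2 had 6 GC box matches and Igf2bp2 had 2, against a share of 35.7% of windows with any. No FOX or AP-1 letters were found in any window of the 8 genes with a listed start, where 3.65% and 7.81% of all windows hold them.

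Most start regions were called in every clone, with different pile-ups. At the Thada start, on chromosome 17 at 84465497 to 84466263, the pile-up was 101 reads in the homozygous, 82 in the heterozygous and 88 in the wild-type library, over backgrounds of 7.38, 6.30 and 9.68 reads. At the Jazf1 start the pile-ups were 75, 52 and 95 reads. At the Cdkal1 start, on chromosome 13 at 29854986 to 29855735, they were 81, 31 and 91 reads. The raw pile-up was lowest in the heterozygous library at each of these starts. Divided by each library's lowest background, it was still lowest there at the Jazf1 and Cdkal1 starts, but the Thada values became 58.2 in the homozygous, 47.3 in the heterozygous and 40.5 in the wild-type library. Vps13c, which encodes a lipid transfer protein, had peaks at its lower end in all 3 libraries, and the main one, on chromosome 9 at 67840335 to 67840997, had folds of 14.6, 10.6 and 12.2 within the homozygous, heterozygous and wild-type lists.

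Camk1d was the only member with a start region in wild type and none in the knockouts. It encodes a calcium- and calmodulin-dependent protein kinase. The wild-type peak, on chromosome 2 at 5713727 to 5714040, lay 722 bp downstream of the first listed start with a fold of 5.04 and a pile-up of 15 reads, among the lower pile-ups of the members. In all, 8 regions at the genes' own starts were called in the homozygous, 9 in the heterozygous and 9 in the wild-type library, of 10. With the 2 regions at the Kcnq1ot1 start inside Kcnq1, 1 of 10 homozygous start regions was absent from wild type, where 6.77% of all start regions were, and 1 of 10 wild-type ones was not called, where 14.8% of all were not. In the heterozygous clone against wild type these were 1 of 10, against 5.41%, and 1 of 10, against 15.5%. In the homozygous against the heterozygous clone they were 1 of 10, against 11.6%, and 1 of 10, against 9.58%. The region absent from a knockout in each comparison with wild type was that of Camk1d. For Vps13c and Kcnq1 either gene end was taken as a start, since no promoter entry gave the start.

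**Figure D1:**
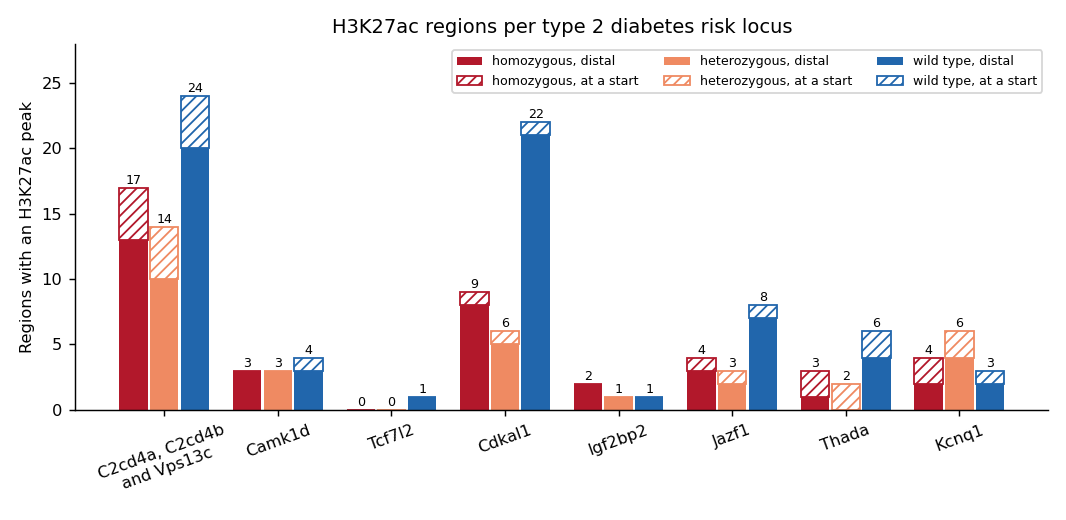
Number of regions with an H3K27ac peak (vertical axis) at each of the 8 loci in the homozygous (dark red), heterozygous (orange) and wild-type (blue) libraries, 1 library each. Solid parts are distal regions and hatched parts are regions within 1 kb of a start. Wild type had the most regions at the C2cd4a, C2cd4b and Vps13c locus (17, 14 and 24) and at Cdkal1 (9, 6 and 22), while at Kcnq1 the heterozygous library had the most (4, 6 and 3).

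Most acetylation at these loci lay away from starts. A region was called distal when it was more than 1 kb from every start listed for any gene, and 73 of the 85 regions were distal (85.9%), against 66.6% of all regions. Of these, 32 were called in the homozygous, 25 in the heterozygous and 59 in the wild-type library. Of the 85 regions, 25 were called in all 3 libraries (29.4%, against 36.8% of all regions) and 35 in wild type alone (41.2%, against 23.1%). The homozygous library alone held 10 (11.8%, against 12.8%) and the heterozygous alone 4 (4.71%, against 8.65%). Among distal regions, 21.9% of the members' and 19.1% of all were called in all 3 libraries, and 46.6% and 30.4% in wild type alone. The Wilson interval of that 46.6%, for counting error only, was 35.6 to 57.9%, which does not hold 30.4%. Of these 34 distal member regions called in wild type alone, 15 lay at Cdkal1. The share without that gene was not taken. Wild-type regions kept in the homozygous clone had a median wild-type pile-up of 63 reads and a median width of 638 bp, against 29 reads and 392 bp for those not called there. Over all regions the same medians were 72 reads and 664 bp for kept regions and 29 reads and 366 bp for the others.

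In the homozygous clone against wild type, 39 of 69 wild-type regions were not called (56.5%, Wilson 95% interval 44.8 to 67.6%), where 39.4% of all wild-type regions were not. Conversely 12 of 42 homozygous regions were absent from wild type (28.6%, 17.2 to 43.6%), with 25.9% over all regions. Intervals here cover counting error only. Among distal regions 38 of 59 were not called (64.4%, 51.7 to 75.4%), against 56.2% of all distal wild-type regions, and 11 of 32 were gained (34.4%, 20.4 to 51.7%), against 41.8%. The interval for distal regions holds the share over all distal regions in both directions. Of the 39 regions, 15 lay at Cdkal1, and without that gene 24 of 47 were not called (51.1%). With the 3 lists cut to equal length, 20 of 47 were not called (42.6%), against 30.3% over all regions. The equal-length shares were not split into distal and start regions, and member regions are more often distal (85.9%, against 66.6% of all). They therefore do not show whether a difference remains among distal regions.

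In the heterozygous clone against wild type, 40 of 69 regions were not called (58.0%, 46.2 to 68.9%), where 42.4% of all were not, and 6 of 35 were gained (17.1%, 8.10 to 32.7%), where 21.4% of all were. For distal regions these were 39 of 59 (66.1%, 53.4 to 76.9%) against 60.7%, and 5 of 25 (20%, 8.86 to 39.1%) against 36.9%. Cdkal1 held 16 of the 40, and without it 24 of 47 were not called (51.1%). With lists of equal length, 21 of 47 were not called (44.7%), against 30.5% over all regions, again without a split into distal and start regions. Both comparisons use the same wild-type library, so the regions missing from both knockouts are not independent evidence. In the homozygous against the heterozygous clone, whose lowest backgrounds were alike, 15 of 42 regions were gained (35.7%) with 35.1% over all regions, and 8 of 35 were not called (22.9%) with 27.6% over all. The distal shares were 43.8% gained against 54.5% over all distal regions, and 28% not called against 45.1%.

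**Figure D2:**
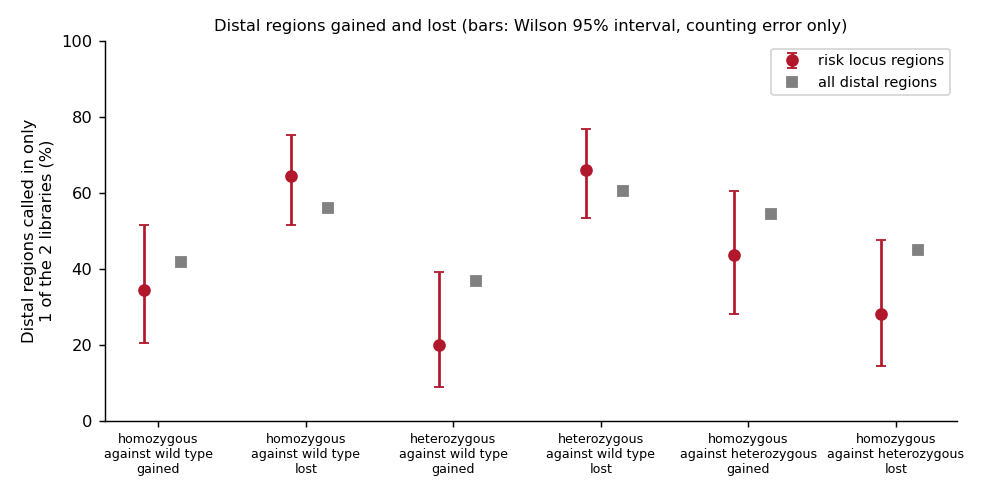
Share of distal regions called in the first library of a comparison and not the second (gained) or the reverse (lost), in percent. Red points are regions of the 10 genes with Wilson 95% intervals for counting error, and grey squares are all distal regions of the series. All 6 grey squares lie within the red intervals (for the homozygous clone against wild type, 64.4% lost against 56.2%).

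By gene, 8 of the 10 had fewer regions in the homozygous clone than in wild type, and Igf2bp2 and Kcnq1 had more. Over all 14574 genes with a region, 33.7% had fewer and 16.6% more, but the members are mostly long genes. Among genes of at least 100 kb, 54.6% had fewer regions in the homozygous clone, and 6 of the 8 members of that length did. Of long genes 24.8% had more, as did 2 of the 8 members. In the heterozygous clone 8 of 10 genes had fewer, Kcnq1 had more and Igf2bp2 as many, against 38.3% of all genes and 64.6% of the long ones with fewer, and 11.2% and 14.7% with more. Against the heterozygous clone the homozygous one had more regions at 6 genes, fewer at Kcnq1 and as many at 3, where 27.7% of all genes had more and 17.1% fewer. Among the 8 long members 5 had more and 1 fewer, where 48.4% and 24.1% of long genes did. Counted over the 8 loci, 6 had fewer regions in each knockout than in wild type in the lists as deposited. With lists of equal length 4 had fewer in the homozygous and 5 in the heterozygous clone, and with peaks at or above the median −log10 q of their list 3 had fewer in each.

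The C2cd4a, C2cd4b and Vps13c locus was the densest of the members in the knockouts and in wild type. Its 27 regions ran over 263 kb, from 67703844 to 67966746 on chromosome 9, with 17 regions in the homozygous, 14 in the heterozygous and 24 in the wild-type library. Of the 14574 genes with a region, 44, 50 and 20 had as many or more in those libraries, although the locus pools 3 genes. Peaks covered 9285 bp in the homozygous, 7255 bp in the heterozygous and 12511 bp in the wild-type library. All 23 distal regions of the locus but 3 were called in wild type, and 7 of the 27 regions were called there alone (25.9%, against 23.1% of all regions). Most of the 27 lay between C2cd4b and C2cd4a.

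Peaks between C2cd4b and C2cd4a stood on a high local background, so that large pile-ups gave modest folds. The region on chromosome 9 at 67798635 to 67799235, 33095 bp downstream of the C2cd4a start, had pile-ups of 97, 98 and 143 reads in the homozygous, heterozygous and wild-type libraries over backgrounds of 16.6, 25.0 and 37.8 reads. Its folds within the 3 lists were accordingly 5.56, 3.81 and 3.71. The median background at C2cd4a and C2cd4b peaks was 16.6 reads in the homozygous, 9.53 in the heterozygous and 10.6 in the wild-type library, against 7.12, 6.72 and 7.26 over all peaks. The homozygous clone thus had the highest median and the wild-type library the highest single backgrounds, up to 39.4 reads.

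Within the stretch the clones differed region by region. At 67765103 to 67765912, some 5.7 kb past the C2cd4b start, the peak was 446 bp wide in the homozygous, 245 bp in the heterozygous and 794 bp in the wild-type library, with pile-ups of 93, 37 and 125 reads. Its neighbour at 67766153 to 67766998 had the same order, with widths of 424, 233 and 813 bp. A further pair of wild-type regions, at 67803305 to 67804449, had no call in either knockout, with pile-ups of 77 and 73 reads over backgrounds of 27.2 and 21.4. The folds of this pair in the wild-type list were 2.77 and 3.30, and both regions were below its median −log10 q. Nearer to C2cd4a some homozygous pile-ups were high, over a high local background. A region at 67813994 to 67814671 had pile-ups of 124, 50 and 84 reads over backgrounds of 20.7, 6 and 10.6 reads. Its folds within the homozygous, heterozygous and wild-type lists were 5.76, 7.29 and 7.31. The region at 67817626 to 67818009 was called in the homozygous clone alone with 80 reads over a background of 20.9. Another at 67823452 to 67823712, with 36 reads, was also called in the homozygous clone alone, and the only region called in the heterozygous clone alone lay farther off, at 67783503 to 67783952, with 37 reads. Inside C2cd4a, at 67830641 to 67830998, the heterozygous and wild-type libraries had a call, with 33 and 26 reads, and the homozygous had none. At the C2cd4b start region peaks covered 1798 bp in the homozygous, 1489 bp in the heterozygous and 1283 bp in the wild-type library.

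**Figure D3:**
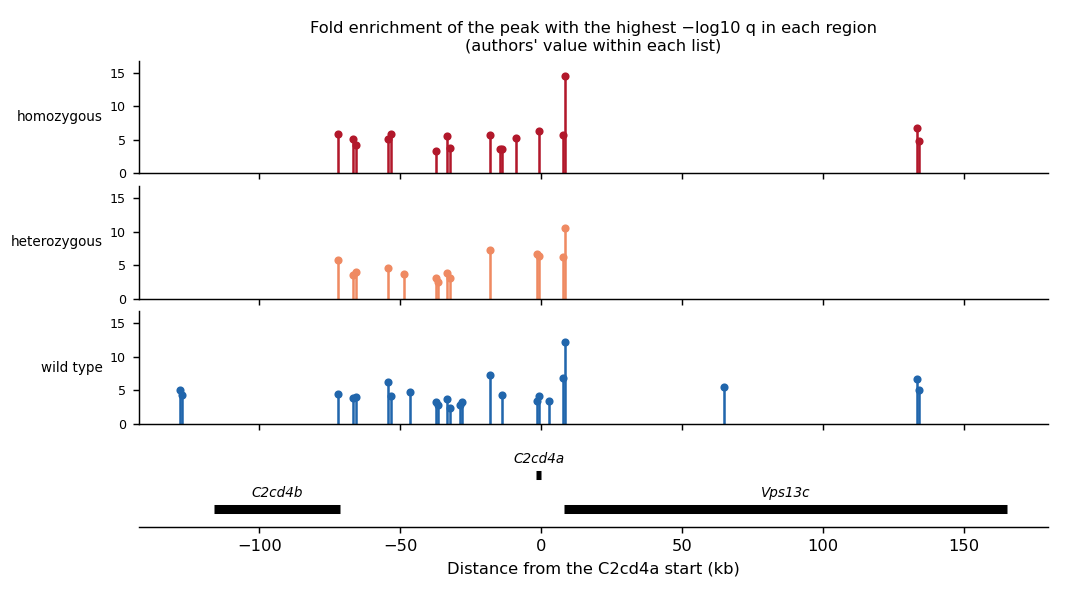
Position of each region at the C2cd4a, C2cd4b and Vps13c locus, in kb along the chromosome from the C2cd4a start, with the authors' fold enrichment within each list as the height of the stem, for the homozygous (top), heterozygous and wild-type libraries. Black bars are the genes. The tallest stem in each library is at the lower end of Vps13c (14.6, 10.6 and 12.2), and only wild type has stems beyond the far end of C2cd4b.

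Within Vps13c itself, 3 distal regions were called in wild type, 2 of them in the homozygous and none in the heterozygous clone. The shared pair lay at 67965308 to 67965969, with pile-ups of 30 reads in the homozygous and 35 in the wild-type library, and at 67966231 to 67966746, with 21 and 27 reads. The third, at 67896924 to 67897263, had 26 reads in wild type. These are low pile-ups, and all 3 calls were below the median −log10 q of the wild-type list.

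In the lists as deposited, Cdkal1 showed the widest gap between wild type and the knockouts. Of its 24 regions 9 were called in the homozygous, 6 in the heterozygous and 22 in the wild-type library, and peaks covered 5426, 4164 and 13178 bp. In wild type, 99.8% of genes with a region had fewer. Cdkal1 is 663938 bp long, and this rank was not taken among genes of like length. Of the 22 wild-type regions, 15 were not called in the homozygous and 16 not in the heterozygous clone, and the 15 were among the 16. The other was at 29769043 to 29769763, with 18 reads in the homozygous and 50 in the wild-type library. No distal region was gained in the heterozygous clone, and 2 were gained in the homozygous one, with pile-ups of 26 and 14 reads. The rank of Cdkal1 depended on the lists. With lists of equal length its net against wild type was -4 in the homozygous and -5 in the heterozygous clone, against -4 and -7 at the C2cd4a, C2cd4b and Vps13c locus. With peaks at or above the median −log10 q it was -5 and -4, against -4 and -5 at that locus.

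The wild-type acetylation of Cdkal1 lay in separate groups along the gene. Some 28723 to 84928 bp inside the gene from its start, 8 wild-type regions in a row, over 56.9 kb from 29770067 to 29826950, had no call in either knockout. Their folds in the wild-type list ran from 3.28 to 7.37 and their pile-ups from 24 to 88 reads, the highest at 29826258 to 29826950, 28723 bp inside the gene. That region was the only one of the 8 at or above the median −log10 q of the wild-type list. Some neighbours among the 8 lay only 467 and 347 bp apart. A second group lay some 500 kb into the gene. There the widest wild-type peak of all 10 genes, at 29355318 to 29357449, spanned 2132 bp, against 339 bp in the homozygous and 963 bp in the heterozygous library. Its pile-up was 34 reads in the homozygous, 57 in the heterozygous and 168 in the wild-type library, yet the folds were 4.78, 4.65 and 4.63, because the backgrounds were 6.32, 11.5 and 35.5 reads. With pile-ups divided by each library's lowest background, the ratio to wild type was 0.253 in the homozygous and 0.425 in the heterozygous clone.

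Not all of Cdkal1 was lower in the knockouts. A pair of wild-type regions just before that peak, at 29348807 to 29350548 with 72 and 97 reads, was not called in either knockout. Against this, 4 distal regions were called in all 3 libraries besides it. The one at 29210134 to 29210967 had 75 reads in the homozygous, 38 in the heterozygous and 45 in the wild-type library. The one at 29162503 to 29163209, outside the gene, had 36, 43 and 15 reads and was widest in the heterozygous library. The last pair, at 29746284 to 29748034, had 75 and 51 reads in the homozygous, 61 and 46 in the heterozygous and 64 and 51 in the wild-type library.

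**Figure D4:**
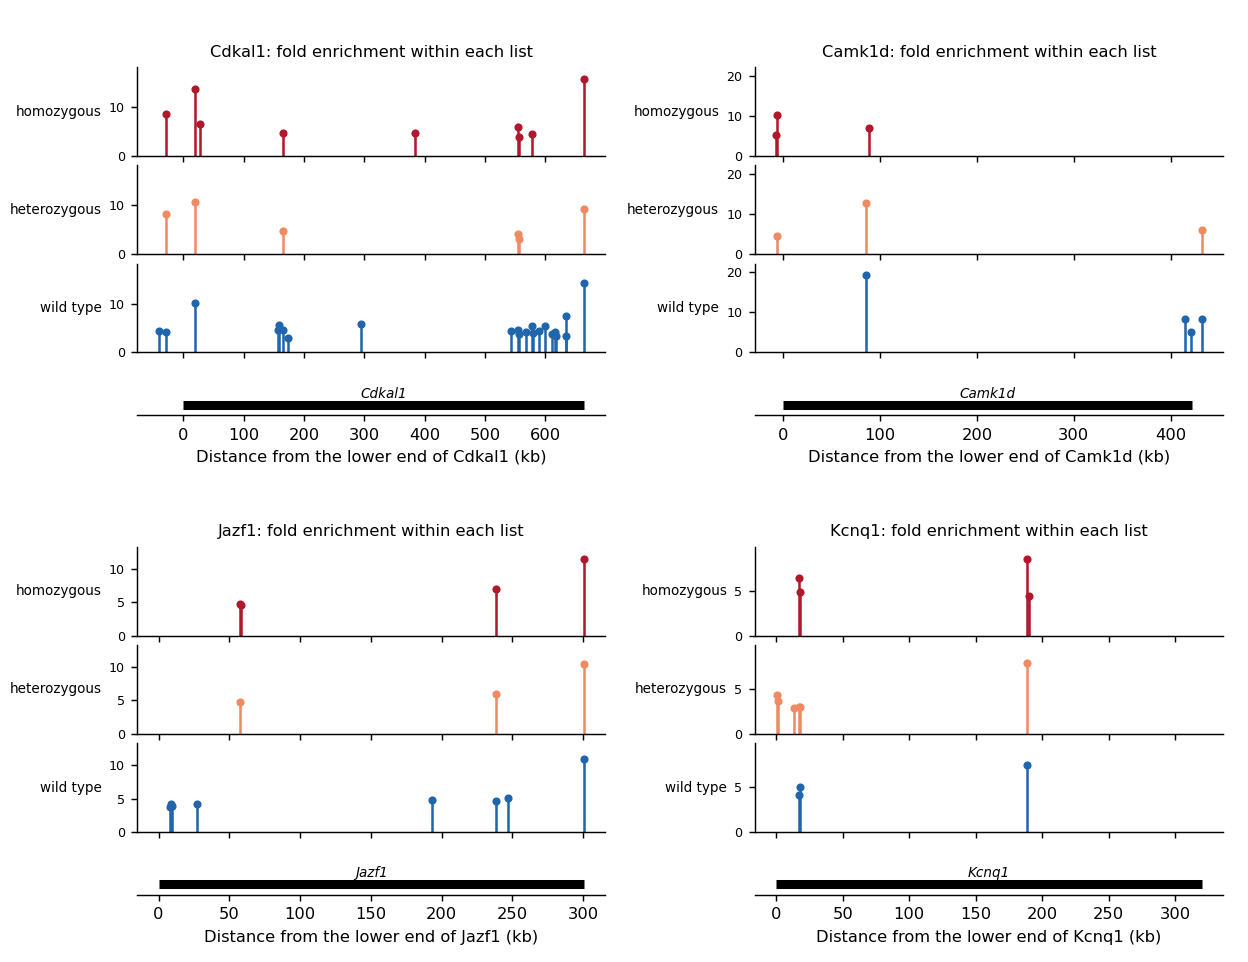
Position of each region along Cdkal1, Camk1d, Jazf1 and Kcnq1, in kb from the lower end of the gene (black bar), with the authors' fold enrichment within each list as the height of the stem, for the homozygous (top), heterozygous and wild-type libraries. At Cdkal1 the 8 stems called in a row in wild type alone lie near the right end, where the start is, and at Jazf1 a run of 4 lies at the left.

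Jazf1 and Thada, both with a start region called in every clone, also had fewer distal regions in the knockouts in the lists as deposited. Jazf1 had 4 regions in the homozygous, 3 in the heterozygous and 8 in the wild-type library, covering 2195, 1524 and 4699 bp. With lists of equal length the net against wild type was 0 regions in the homozygous and -1 in the heterozygous clone, and with peaks at or above the median −log10 q of their list it was 0 in both. A run of 4 wild-type regions over 19.8 kb, from 52775950 to 52795756 on chromosome 6, had no call in either knockout, with folds of 3.78 to 4.14. The widest of them covered 1214 bp. Of the wild-type regions without a call in either knockout, the one with the highest fold, 5.15, lay at 53015110 to 53015389 and had 16 reads. In the other direction, a region at 52825228 to 52825589 was called in both knockouts, with pile-ups of 23 reads in the homozygous and 20 in the heterozygous library, and not in wild type. The region at 53006292 to 53006927 was 636 bp wide in the homozygous, 390 bp in the heterozygous and 306 bp in the wild-type library.

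Thada had 3, 2 and 6 regions in the homozygous, heterozygous and wild-type libraries, and under either of those settings its net against wild type was -1 in each knockout. Both start regions were called in all 3, so that every region the heterozygous clone kept was at the start. The 4 distal wild-type regions had no call in either knockout. One of them, at 84480849 to 84481485 on chromosome 17, 14641 bp upstream of the start, had a fold of 8 and a pile-up of 43 reads and was above the median −log10 q of its list. The homozygous clone had 1 distal region of its own, at 84408499 to 84408774, with 13 reads.

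Camk1d differed from the genes above in that the clones had similar counts at different places. It had 3 regions in the homozygous, 3 in the heterozygous and 4 in the wild-type library, and no region was called in all 3. The region at 5379135 to 5379487 on chromosome 2 had the highest fold of any member region, 19.2 in the wild-type list, and a fold of 12.8 in the heterozygous list, with pile-ups of 34 reads in the heterozygous and 60 in the wild-type library. No peak was called there in the homozygous library, whose nearest call began 2247 bp further on, at 5381735 to 5383081. That homozygous region was 1347 bp wide with 55 reads, and neither other library had a call in it. Near the start, a wild-type region at 5708223 to 5708821 had 25 reads and no call in either knockout. Upstream of the gene, at 5725209 to 5725669, the heterozygous library had 19 reads and the wild-type library 26, and the homozygous had no call. Downstream of the gene, a region at 5286752 to 5287281 had 39 reads in the homozygous and 20 in the heterozygous library and no call in wild type. Among peaks at or above the median −log10 q of their list, the order turned and the homozygous clone had 1 region more than wild type, and with lists of equal length both knockouts had as many as wild type.

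Tcf7l2 and Igf2bp2, which had no start peak in any library, had few regions of any kind. Tcf7l2 had a single region, called in wild type alone, at 55793013 to 55793291 on chromosome 19. It lay 51203 bp inside the gene, was 279 bp wide and had a pile-up of 21 reads over 2.17, at a fold of 6.94. Elsewhere in the gene no peak passed the authors' threshold, which does not show that the mark was absent. Igf2bp2 had a region at 22076037 to 22076616 on chromosome 16, 86683 bp inside the gene, in all 3 libraries, with pile-ups of 32 reads in the homozygous, 23 in the heterozygous and 20 in the wild-type library and widths of 535, 488 and 269 bp. The homozygous clone had a second region beside it, 200 bp wide with 16 reads.

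In the lists as deposited, Kcnq1 was the only member with more regions in both knockouts than in wild type. It encodes the pore subunit of a voltage-gated potassium channel, and the antisense RNA Kcnq1ot1 inside it is transcribed from an imprinted promoter. There were 4 regions in the homozygous, 6 in the heterozygous and 3 in the wild-type library, covering 2437, 2733 and 2578 bp. No wild-type region was missing from a knockout. The homozygous excess was 1 region, 245 bp wide, and it fell to 0 with peaks of at least 250 bp, with peaks within 500 bp merged, or where a peak within 1 kb counted as present. The heterozygous excess of 3 fell to 0 among peaks at or above the median −log10 q of their list. The heterozygous clone had 3 regions of its own at the lower end of the gene, at 143107347 to 143107735, 143107916 to 143108163 and 143120192 to 143120588 on chromosome 7, with pile-ups of 33, 28 and 44 reads. Beside them, at 143123741 to 143124423, all 3 libraries had a call, with 66 reads in the homozygous, 46 in the heterozygous and 40 in the wild-type library over backgrounds of 9.42, 14.6 and 8.96. All 3 heterozygous regions were below the median −log10 q of their list, and among peaks above it the homozygous clone had 1 region more than the heterozygous.

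The Kcnq1ot1 start lay in the strongest region of the gene in each library. At 143295125 to 143296519 the pile-up was 120 reads in the homozygous, 54 in the heterozygous and 79 in the wild-type library, at folds of 8.64, 7.97 and 7.56. Its widths were 1201, 1022 and 1380 bp. A peak list without alleles cannot say which parental copy carried the mark.

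Shared regions were mostly narrower in each knockout than in wild type. In the homozygous clone against wild type, 20 of 30 shared member regions were narrower and 10 wider, with a median width ratio of 0.862 and a range of 0.159 to 2.08, where 59.4% of all shared regions were narrower and the median ratio was 0.954. In the heterozygous clone against wild type 20 of 29 were narrower, with a median ratio of 0.850, where 72% of all were narrower and the median was 0.881. Homozygous regions were narrower than heterozygous ones in 12 of 27, with a median ratio of 1.07, where 37.2% of all were. Widths here sum a library's peaks in a region, so a call split into 2 peaks leaves out the gap. At the C2cd4b start region the summed width was larger in both knockouts than in wild type. At the C2cd4a start region it was larger in the homozygous clone alone, at 1006 bp in the homozygous, 496 bp in the heterozygous and 554 bp in the wild-type library. Each of these start regions held 2 peaks in wild type and 1 in each knockout. At C2cd4a the wild-type peaks ran from 67831215 to 67832258 and the homozygous peak from 67831218 to 67832223, so the extents were alike.

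Pile-up ratios depend on an assumed depth scaling that was not applied to widths, so the 2 sets of ratios are not on the same footing. The lowest background was 1.73 reads in each knockout and 2.17 in wild type, so the division raises the ratios to wild type. Divided by each library's lowest background, shared member regions had a median ratio to wild type of 1.18 in the homozygous clone, with 11 of 30 lower, and 1.25 over all shared regions. In the heterozygous clone the ratio was 0.900, with 18 of 29 lower, and 0.940 over all. The homozygous clone against the heterozygous gave 1.39, and 1.34 over all. Peaks of the 10 genes covered 23257 bp in the homozygous, 18056 bp in the heterozygous and 38263 bp in the wild-type library, ratios to wild type of 0.608 and 0.472, against 0.805 and 0.697 over all peaks. Such sums move with the number of calls, and the median peak width was 453.5, 422 and 461 bp.

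**Figure D5:**
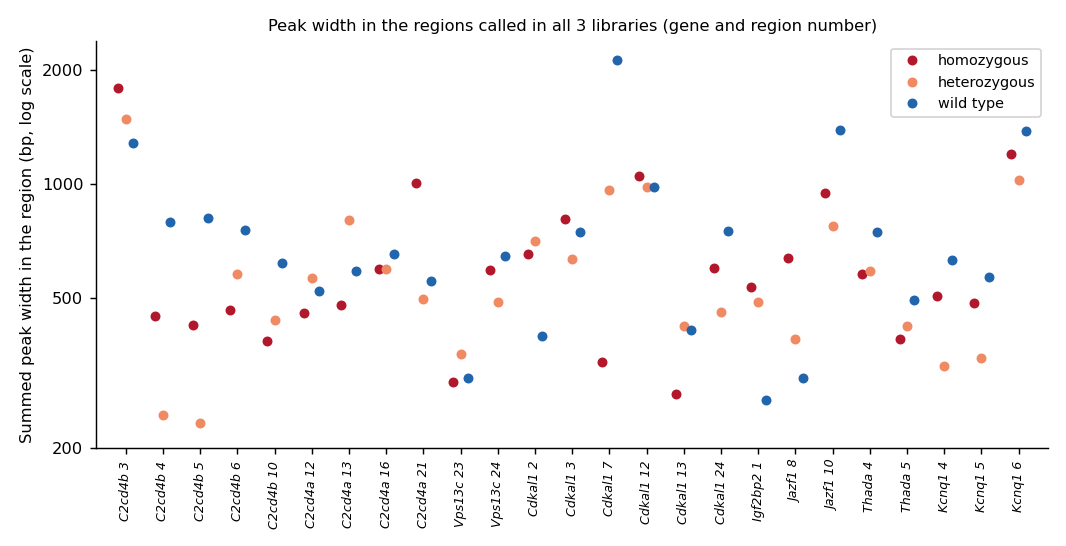
Summed peak width (vertical axis, bp, log scale) in each of the 25 regions called in all 3 libraries, named by gene and region number, with homozygous (dark red), heterozygous (orange) and wild-type (blue) points. Wild type is far above the others in Cdkal1 region 7 (339, 963 and 2132 bp), while the homozygous point is the highest at the start regions of C2cd4b (1798, 1489 and 1283 bp) and C2cd4a (1006, 496 and 554 bp). At both start regions the wild-type sum joins 2 peaks and leaves out the gap between them.

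Another 50 genes near type 2 diabetes loci give a setting for the 10, and 42 of them had at least 1 region. In the homozygous clone against wild type 9 had more regions, 16 fewer and 17 as many, where 16.6% of all genes had more and 33.7% fewer, and 68 of 165 wild-type regions were not called (41.2%), close to the 39.4% over all regions. St6gal1, a sialyltransferase gene, had 0 regions in the homozygous, 0 in the heterozygous and 10 in the wild-type library, and Adcy5, an adenylyl cyclase gene, had 1, 0 and 9. Abcc8, the sulfonylurea receptor of the beta cell potassium channel, had 14, 8 and 10. Bcar1 had 10, 7 and 7, and Grb14 had 3, 3 and 0. In the heterozygous clone against wild type 5 had more, 17 fewer and 20 as many, where 11.2% of all genes had more and 38.3% fewer, with 85 of 165 regions not called (51.5%), above the 42.4% over all regions. Macf1, a cytoskeletal linker gene, had 14, 5 and 16 regions in the homozygous, heterozygous and wild-type libraries, and Pparg had 0, 4 and 0. In the homozygous clone against the heterozygous 16 had more and 9 fewer, where 27.7% of all genes had more and 17.1% fewer. There 59 of 135 homozygous regions were gained (43.7%), against 35.1% over all regions. Of the heterozygous regions 30 of 106 were not called (28.3%), against 27.6%. These lists were chosen with earlier results of these data known and carry no test.

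With a limit of 100 kb in place of 50 kb, 43 homozygous, 35 heterozygous and 69 wild-type regions were assigned. The members farthest from a gene were the wild-type region 41166 bp from Cdkal1, with a fold of 4.39, and a C2cd4a region at 34428 bp. Just outside the limit lay a region called in the homozygous clone alone, 57174 bp from Cdkal1, with a fold of 10.2.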

How the data were processed

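H3K27ac ChIP-seq peak lists of 3 MIN6 libraries, 1 per genotype, were used. Per the submitters' processing notes bcl2fastq and MACS2 were used with mm10. No source used here names the aligner, the control or the number of reads. The deposited lists hold, for each peak, a fold enrichment (ratio) and the −log10 of p and q, as the authors gave them. Peaks were called in each library separately.

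Peaks touching by 1 bp were merged into regions and assigned with RefSeq genes (GRCm38.p6). Fold and q were used within a list only. Pile-up n and background λ were solved from fold = (n + 1)/(λ + 1) and the Poisson p, and n was whole within 0.02 for 34297 of 34298 homozygous, 31362 of 31365 heterozygous and 41487 of 41490 wild-type peaks. That the lowest λ (1 heterozygous peak solved to 0 was left out) tracks depth is an assumption. The solution was also run on values simulated with the same formulas, which checks the arithmetic only. A region was gained or lost by presence of a call. Wilson intervals were at 95%.

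With 1 library per genotype no test was possible. Members and gene lists were chosen with earlier results of these data known. All member regions are counted. Those named are, per locus, the start regions, the highest fold and widest peak of each list, the one-sided distal region of highest fold, and one-sided regions at or above the median −log10 q of their list. Others named were chosen after their values were seen. Python 3.11.15, numpy 2.4.6, pandas 2.3.3, scipy 1.17.1 and matplotlib 3.10.9 were used.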

Additional observations from a re-analysis of the deposited data

How the results depend on the processing

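Against the lists as deposited, 9 planned settings were tried and 2 more were chosen after seeing the data. Of 87 counts and covered lengths, 66 stayed within 1.5 times their value and 21 did not. With only peaks at or above the median −log10 q of their list, the regions gained and lost were 3 and 11 in the homozygous clone against wild type, 1 and 11 in the heterozygous against wild type, and 5 and 3 in the homozygous against the heterozygous. Covered lengths were then 11646 bp in the homozygous, 8660 bp in the heterozygous and 18428 bp in the wild-type library. Of the 24 nets of regions (8 loci in 3 comparisons), 3 reversed under this setting and 11 moved to or from 0. The reversals were to 1 for Camk1d in the homozygous clone against wild type, and to -1 for Cdkal1 and 1 for Kcnq1 in the homozygous against the heterozygous. Over all settings 179 of 216 nets kept their sign, or stayed at 0, and 34 moved to or from 0, among them 6 of 24 with lists of equal length. Lists of equal length gave 20 regions lost in the homozygous and 21 in the heterozygous clone against wild type. In the homozygous clone against the heterozygous, peaks of at least 250 bp gave 5 lost, merging within 500 bp gave 8 gained and 5 lost, regions inside the gene only gave 5 lost, and a distal limit of 2.5 kb gave 4 distal regions lost. Merging also gave 7 gained in the homozygous clone against wild type, and inside the gene only the heterozygous peaks covered 11882 bp. Without Cdkal1, a setting added after seeing the data, 24 regions were lost in either knockout against wild type and wild-type peaks covered 25085 bp. Lists thinned to the lowest background, also added later, gave 31 of 60 wild-type regions lost in the homozygous clone (51.7%, against 35.2% over all) and 33 of 60 in the heterozygous (55.0%, against 38.1%). The shares over all regions were not matched to the members for distance from a start, and the members are more often distal. The cause of these changes was not tested, apart from the smaller number of peaks that a stricter, equal or thinned list holds by construction. No paired analysis was possible because each genotype has 1 library. A call missing from a list says that no peak passed the authors' threshold at this depth, not that the mark was absent.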
